A study of Rattus norvegicus with 18 samples.

Results

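The genes described here encode the translation initiation and elongation factors of the rat cortical collecting duct. They were chosen by symbol, as every row whose symbol begins with Eif1 to Eif6 or with Eef1 or Eef2, apart from Eif2ak2. The rule took 65 of the 32883 genes in the table and used no measured value. It takes in the subunits of the factors and also the kinases, binding proteins and methyltransferases named after them. The ducts came from male Sprague-Dawley rats given lipopolysaccharide (LPS), a bacterial cell wall component, or the Vehicle, normal saline, into the peritoneum 3 h earlier. Each group had 3 numbered samples with 3 libraries each, 18 libraries in all. The labels call the design paired without saying what a number shares, and they give no age and no genetic change in either group. They do not say whether a numbered sample is 1 animal, so a p-value here speaks of the spread among these samples, which may be technical.

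Translation begins when initiation factors load the small ribosomal subunit with the initiator tRNA, bring it to the capped end of an mRNA and move it to the start codon. The large subunit then joins and elongation factors deliver each aminoacyl-tRNA and move the ribosome along. Cells hold back initiation through phosphorylation of eIF2 by stress-sensing kinases and through proteins that bind the cap-binding factor eIF4E, and they slow elongation through a kinase of eEF2.

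Values are in TPM, a transcript abundance corrected for length and scaled to the same total in every library, and a sample's value is the mean of its 3 libraries. Differences were fitted with limma on log2(TPM + 1) with the sample number as a block. A gene was called at an adjusted p under 0.05 over the 12393 genes whose mean over all libraries reached 1 TPM. The number of reads behind each value is unknown. Principal cell markers were abundant in all samples, and their summed level was 9213 to 12801.5 TPM in LPS and 15539 to 17302 TPM in Vehicle, with 6 of 10 genes called lower. Intercalated cell markers summed to 4330 to 5897 TPM in LPS and 6081 to 6692 TPM in Vehicle, also without overlap. Markers of the distal convoluted and connecting tubule summed to 30.97 to 220.1 TPM in LPS and 83.6 to 4963 TPM in Vehicle. Calb1 made most of these sums, at 97.6 ± 99.0 TPM in LPS and 1712 ± 2798 TPM in Vehicle (SD, n = 3 each). All 3 tested genes of this list were called lower. Macrophage and monocyte markers summed to 223 to 469.9 TPM in LPS and 130.2 to 269.8 TPM in Vehicle, and 5 of their 11 tested genes were called higher and 1, Csf1r, lower. Neutrophil markers summed to 2.11 to 78.2 TPM in LPS and 0.0933 to 0.39 TPM in Vehicle, and proximal tubule markers to 1.61 to 19.8 TPM in LPS and 1.98 to 21.6 TPM in Vehicle. The part of these markers in the results was not tested. In bulk RNA, fewer cells of a type and less RNA per cell cannot be told apart.

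Most subunits of the core factors were not called. Of the 8 called genes, 5 encode a kinase, a binding protein or methyltransferases that act on the factors. These 5 came from 3 eIF2 kinase genes, 4 genes of eIF4E-binding proteins and 6 tested genes of elongation factor enzymes. Among all tested genes, 29.4% were called in either direction. Eif6, Eif1a and Eef1akmt4 rose with LPS. Eif2ak3, Eif4ebp2, Eif4b, Eef1aknmt and Eef2kmt fell. Of the 65 genes, 63 passed the filter, and the tests left the other 55 uncalled. The 3 genes called higher and 5 called lower stand against 7.17% called higher and 22.2% called lower among all tested genes. The members' shares were 4.76% higher and 7.94% lower.

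The median log2 change of the 63 genes was -0.20, and that of all 12393 tested genes was -0.38. With the samples rescaled by the median ratio of their genes, the all-gene median was -0.01 and the members' median 0.20, with 4 members called higher (6.87% of all tested genes) and 2 lower (3.7%). After quantile normalization, the all-gene median was -0.12 and the members' median -0.04, with 3 called higher (6.53% of all) and 2 lower (4.67%). The direction of the members as a group therefore depended on the scaling, and the count of genes with a positive change was 17, 45 and 27 of 63 under TPM, median-ratio and quantile scaling. All 3 LPS samples lay above all 3 Vehicle samples for 6 of the 63 genes, against 9.82% of all tested genes. They lay below for 29 of the 63, against 47.1%.

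**Figure D1:**
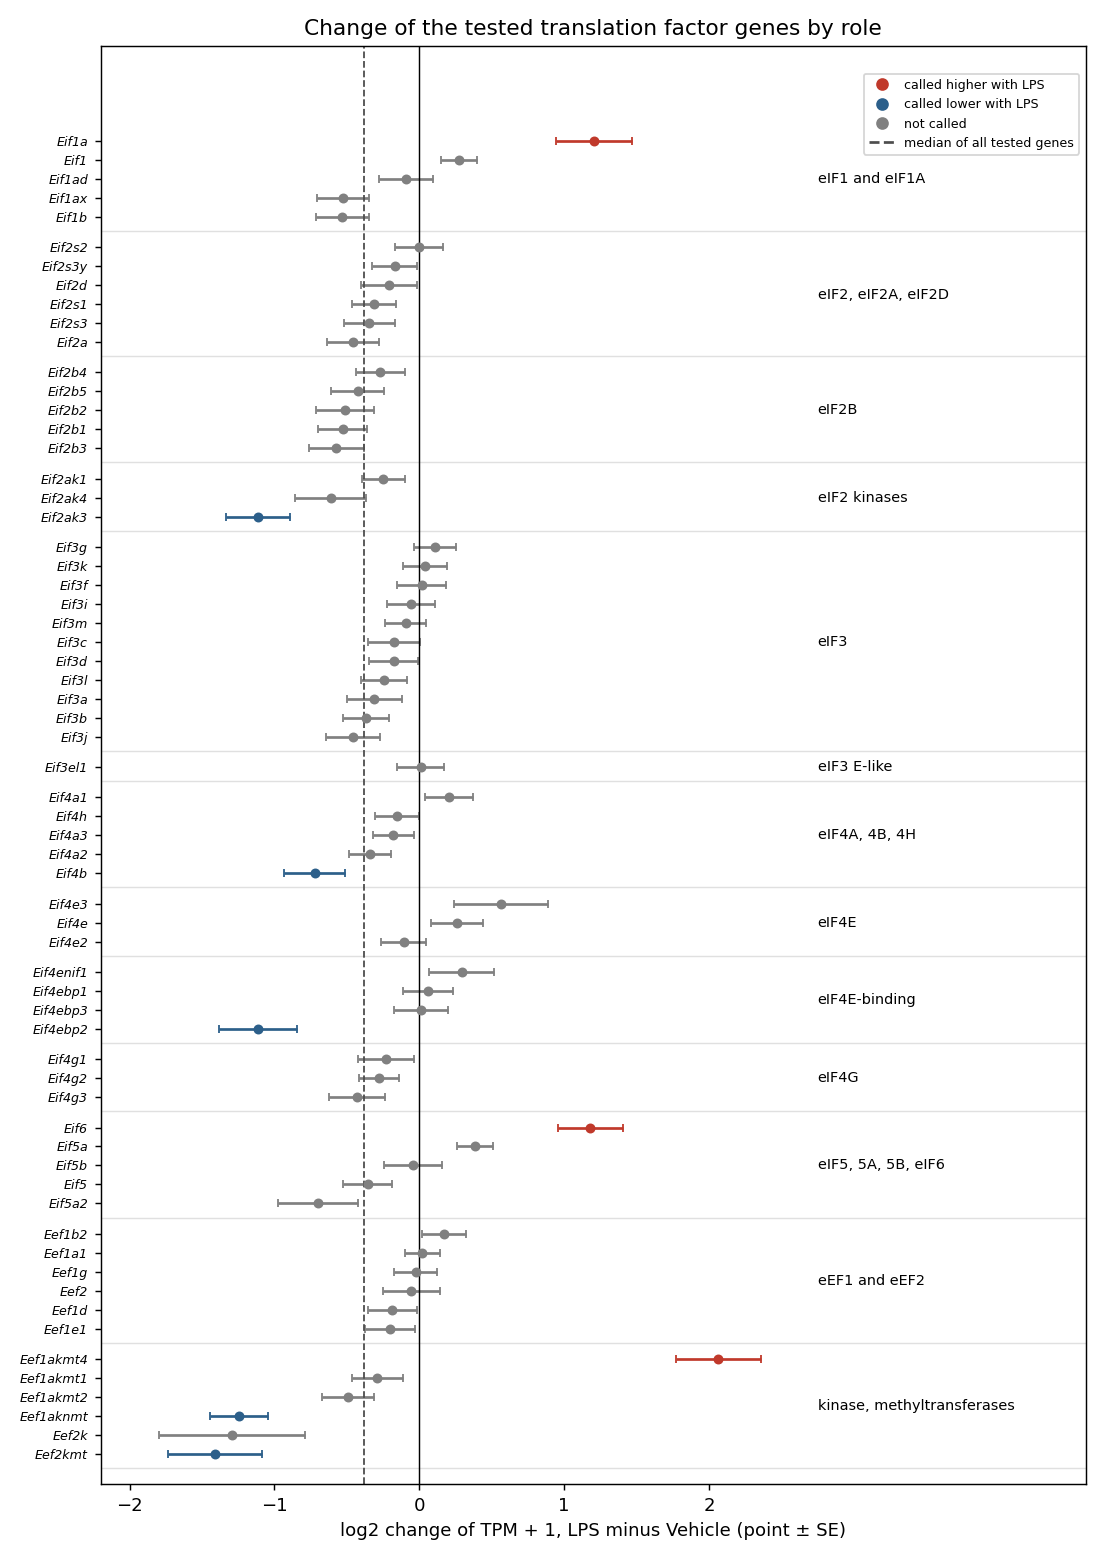
Log2 change of TPM + 1, LPS minus Vehicle, with its SE for each of the 63 tested genes, ordered by role down the page; red points were called higher, blue points lower and grey points not called. Most grey points lie between the dashed all-gene median of -0.38 and a little above 0, and the 3 red points lie above 1.

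The calls were not stable to every treatment of the libraries. No member was called without replicate 3, with the median in place of the mean of the libraries, or without the filter on low values. Nor was any called without the 3 libraries least like the others of their sample. These were all Vehicle, library 1 of Vehicle 1 and libraries 1 and 2 of Vehicle 3. At an unadjusted p under 0.05, limma had 4, 20, 21 and 19 of the members in these 4 fits. The fit reported here had 20 of 63 (47.2% of all tested genes). Among all genes at that threshold, the 4 fits had 2201 of 12393, 5186 of 12393, 6734 of 23716 and 5134 of 12393. All genes were called at 0%, at 0%, at 0.0759% higher and 0.00843% lower, and at 1.84% higher and 0.581% lower in the same 4 fits. All 8 called genes kept their sign in each of the 15 alternatives. In all 8 the change was smallest in the pair numbered 1, as it was in 83.4% of the 3646 genes called in either direction.

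eIF1 and eIF1A hold the scanning small subunit open until the start codon is met. Of their 5 genes, Eif1a was called higher (20%, beside 7.17% of all tested genes) and none lower (22.2% of all). Eif1a (ENSRNOG00000031421) had 86.8, 174.5 and 152.8 TPM in LPS 1 to 3 and 60.2, 46.2 and 66.0 TPM in Vehicle 1 to 3. The groups did not overlap, and LPS 1 lay nearest to Vehicle. The mean was 138 ± 45.7 TPM in LPS and 57.5 ± 10.2 TPM in Vehicle (SD, n = 3 each), a log2 change of 1.20 (SE 0.262, limma adjusted p = 0.0223).

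Its X-linked paralog Eif1ax had 32.0 ± 2.06 TPM in LPS and 46.5 ± 6.17 TPM in Vehicle, a log2 change of -0.53 (SE 0.180, limma adjusted p = 0.0639). The estimates of near-identical transcripts share reads, so the split between these paralogs is uncertain. Their summed level, taken after the values were seen, was 121, 206 and 183 TPM in LPS and 107, 86.3 and 118 TPM in Vehicle, without overlap.

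Eif1, which encodes eIF1 and was the most abundant of the 65 genes, had 1084, 976 and 885 TPM in LPS and 797, 894 and 752 TPM in Vehicle. LPS 3 lay below Vehicle 2, so the groups overlapped. The log2 change of 0.27 (SE 0.123) was not called (limma adjusted p = 0.122), and under median-ratio scaling it was 0.69 and called (limma adjusted p = 0.0409), with adjusted p between 0.0185 and 0.422 over all alternatives. Eif1ad, an eIF1A-like gene, had 23.3 ± 2.22 TPM in LPS and 25.04 ± 4.01 TPM in Vehicle, with overlap. Eif1b, the paralog of Eif1, had 94.4, 61.5 and 63.3 TPM in LPS and 107.7, 97.8 and 107.3 TPM in Vehicle, with a log2 change of -0.53 (SE 0.180, limma adjusted p = 0.0621).

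eIF6 binds the large ribosomal subunit, keeps it from joining the small one too early and is needed to make it. Eif6 (ENSRNOG00000049497) had 250.3, 580.3 and 388 TPM in LPS 1 to 3 and 158, 164 and 187 TPM in Vehicle 1 to 3. Every LPS sample was above every Vehicle sample, and LPS 1 was again the nearest to Vehicle. The mean was 406 ± 166 TPM in LPS and 169.8 ± 15.5 TPM in Vehicle (SD, n = 3 each), a log2 change of 1.18 (SE 0.223, limma adjusted p = 0.0156).

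eIF5A, whose hypusine residue helps ribosomes past slow peptide bonds, came from the second most abundant gene. Eif5a had 862.5, 1026 and 984.5 TPM in LPS and 740.6, 771 and 691 TPM in Vehicle. The groups did not overlap, yet the log2 change of 0.38 (SE 0.122) missed the threshold (limma adjusted p = 0.0535). The rarer Eif5a2 had 1.73 ± 0.665 TPM in LPS and 3.44 ± 0.964 TPM in Vehicle, with a log2 change of -0.70 (limma adjusted p = 0.0898). Eif5, the activator of the GTPase step at the start codon, had 86.3 ± 14.1 TPM in LPS and 109.9 ± 5.81 TPM in Vehicle. Eif5b, the factor for subunit joining, had 9.17 ± 0.766 TPM in LPS and 9.61 ± 0.419 TPM in Vehicle, and neither was called.

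Eef1akmt4 had the largest change of the 63 genes. In human cells its product methylates a lysine of eEF1A, the factor that carries aminoacyl-tRNAs to the ribosome. Eef1akmt4 (ENSRNOG00000029529) had 10.7, 19.9 and 29.9 TPM in LPS 1 to 3 and 3.77, 3.54 and 3.81 TPM in Vehicle 1 to 3. The 3 Vehicle samples were nearly level and the LPS samples spread widely above them. The spread of log2(TPM + 1) over the 6 samples was the widest of the 63 genes. The mean was 20.2 ± 9.61 TPM in LPS and 3.71 ± 0.145 TPM in Vehicle (SD, n = 3 each), a log2 change of 2.06 (SE 0.292, limma adjusted p = 0.00658). Ece2, its neighbour in RefSeq's current rat assembly and looked up after the values were seen, was listed at a mean of 0 TPM in LPS and 0.0111 TPM in Vehicle.

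Of the 6 tested genes for enzymes that modify elongation factors, 2 were called lower (33.3%) and 1, Eef1akmt4, higher (16.7%). The shares among all tested genes were 22.2% lower and 7.17% higher. Eef1aknmt, which RefSeq calls Mettl13 and whose human product methylates eEF1A at its end and at a lysine, had 10.3, 6.38 and 6.91 TPM in LPS and 19.9, 18.1 and 20.3 TPM in Vehicle. All LPS samples lay below Vehicle, with a log2 change of -1.24 (SE 0.201, limma adjusted p = 0.00996). Single libraries overlapped, with 5.52 to 15.88 TPM in LPS 1 and 11.69 to 26.86 TPM in Vehicle 2. Eef2kmt, whose human product methylates a lysine of eEF2, had 5.82, 1.44 and 1.76 TPM in LPS and 8.61, 8.29 and 8.52 TPM in Vehicle. LPS 1 lay between the other LPS samples and Vehicle, and the log2 change was -1.41 (SE 0.324, limma adjusted p = 0.0249). Under median-ratio scaling it was -1.09 and not called (limma adjusted p = 0.0789, 7.57e-05 to 0.289 over all alternatives).

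Eef2kmt overlaps Alg1 in RefSeq's current rat assembly, and the use of strand in the estimates is not given, so reads of these genes may not be told apart. Alg1, also looked up afterwards, had 10.6 ± 4.15 TPM in LPS and 17.3 ± 1.56 TPM in Vehicle. Eef1akmt1, the most abundant of these enzymes, had 24.01 ± 2.77 TPM in LPS and 29.4 ± 0.952 TPM in Vehicle, and Eef1akmt2 21.0 ± 4.53 TPM in LPS and 29.8 ± 3.65 TPM in Vehicle. Neither was called. Eef1akmt3 did not pass the filter, at 0 TPM in the 3 LPS samples and 0.2, 0.06 and 0.187 TPM in Vehicle.

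Eef2k encodes the kinase that inactivates eEF2. It had 10.9, 3.92 and 3.24 TPM in LPS and 8.37, 13.6 and 25.7 TPM in Vehicle. LPS 1 lay above Vehicle 1 while LPS 2 and LPS 3 lay below all Vehicle samples, so the pairs differed in sign. The log2 change of -1.29 (SE 0.503) was not called (limma adjusted p = 0.0872).

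**Figure D2:**
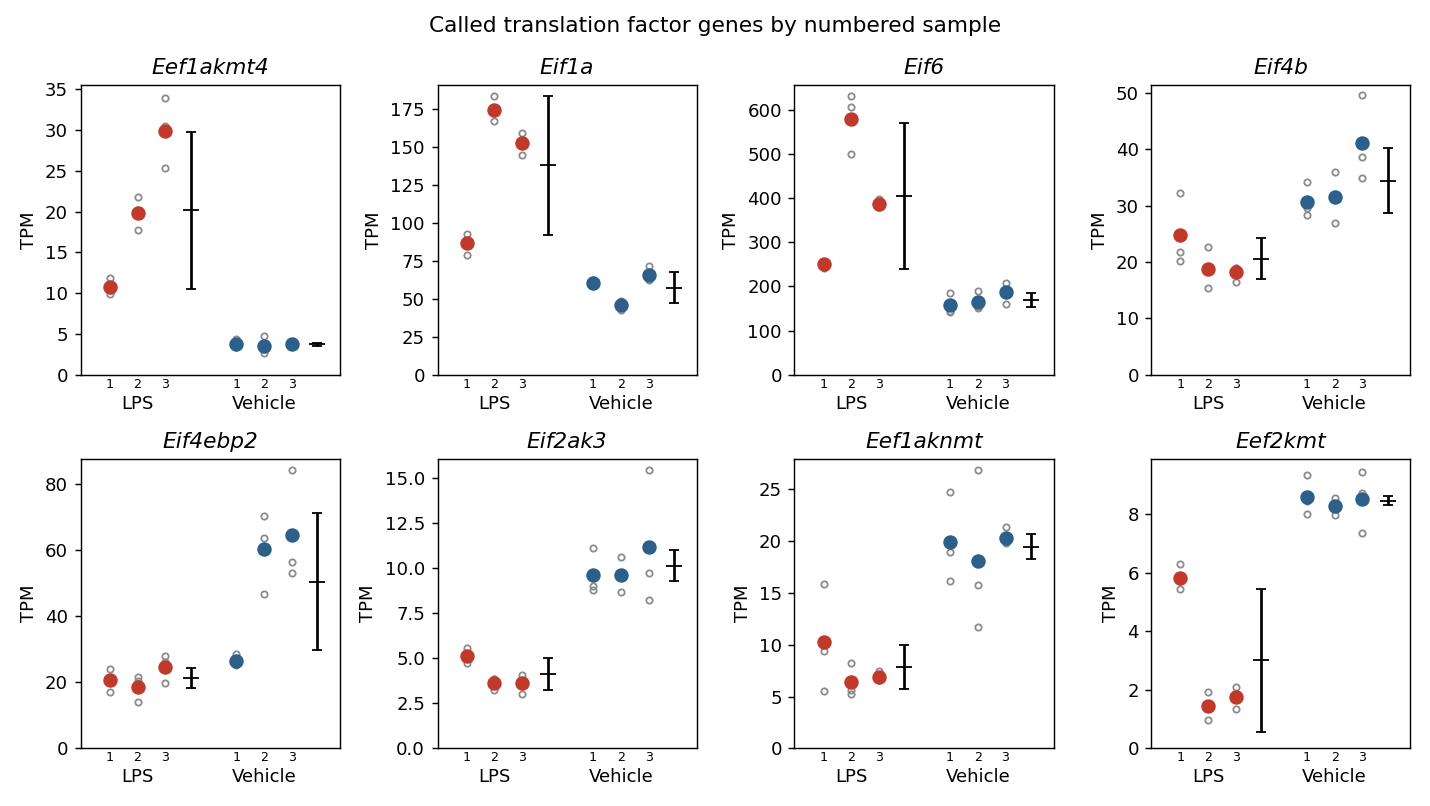
TPM on a linear axis for the 8 called genes, LPS left of Vehicle in each panel. Filled points are numbered samples, open grey points their libraries, and black marks the group mean with its SD. LPS lies above Vehicle for Eef1akmt4, Eif1a and Eif6 and below it for the other 5 genes, and LPS 1 is the LPS point nearest to Vehicle for Eef1akmt4 at 10.7 TPM and for Eif6 at 250.3 TPM.

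The sequences before the start sites of the 3 genes that rose are shown because shared motifs of LPS-responsive promoters could be looked for in them. They are RefSeq's for GRCr8, a later build than that of the TPM table, and each is the 250 bases before an annotated transcription start, read on the gene's strand. Capitals mark a match of the interferon-response (ISRE) type, searched as GAAA, any 2 bases and GAAA.

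Eif6, chr3:164791411-164791660, minus strand: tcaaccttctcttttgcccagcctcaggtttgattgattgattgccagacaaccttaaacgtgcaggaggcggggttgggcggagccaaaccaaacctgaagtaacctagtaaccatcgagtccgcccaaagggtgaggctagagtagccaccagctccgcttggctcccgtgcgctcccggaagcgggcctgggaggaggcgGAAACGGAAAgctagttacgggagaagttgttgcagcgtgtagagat

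Eif1a, chr18:41512048-41512297, plus strand: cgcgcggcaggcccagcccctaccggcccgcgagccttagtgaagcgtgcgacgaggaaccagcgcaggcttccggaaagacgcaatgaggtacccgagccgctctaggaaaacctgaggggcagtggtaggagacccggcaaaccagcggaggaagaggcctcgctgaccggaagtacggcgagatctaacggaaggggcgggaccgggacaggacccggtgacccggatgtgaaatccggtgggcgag

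Eef1akmt4, chr11:93804062-93804311, minus strand: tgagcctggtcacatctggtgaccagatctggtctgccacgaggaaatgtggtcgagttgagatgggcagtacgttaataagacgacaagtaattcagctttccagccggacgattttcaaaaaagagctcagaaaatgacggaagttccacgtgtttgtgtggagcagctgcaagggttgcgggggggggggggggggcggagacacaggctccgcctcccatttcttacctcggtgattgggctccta

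The Eif6 sequence holds gaaacggaaa at positions -47 to -38 from its start. No match to the ISRE type, to TTCNNNGAA (the STAT-binding GAS type) or to the kappaB consensus, on either strand, was in the Eif1a or Eef1akmt4 sequences shown. A second annotated start of Eif1a had a kappaB consensus match, GGGAATCTCC, at positions -150 to -141. Promoters of 300 bases were found for 59 of the 65 genes. The ISRE-type motif was in 4 of them (6.78%), against 4.12% of the 27457 gene symbols with a promoter. TTCNNNGAA was in 3 (5.08%) against 9.39%, and the kappaB consensus in 4 (6.78%) against 8.16%. These matches are letters in a window and do not show binding.

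eIF2 carries the initiator tRNA with GTP. None of the 6 genes of eIF2 and the related carriers was called, beside 7.17% of all tested genes called higher and 22.2% lower. All 6 changes were at or below 0, with a median of -0.26. Under median-ratio scaling that median was 0.15. Eif2s1, the alpha subunit that the stress kinases phosphorylate and the most abundant of the 6, had 122, 124 and 112 TPM in LPS and 158, 135 and 151 TPM in Vehicle. The groups did not overlap, and the log2 change was -0.31 (SE 0.153, limma adjusted p = 0.146). The other eIF2 subunits were not called. Eif2s2, the beta subunit, had 67.2 ± 9.36 TPM in LPS and 68.5 ± 13.9 TPM in Vehicle. The gamma subunit comes from Eif2s3, at 19.6 ± 1.16 TPM in LPS and 25.2 ± 1.497 TPM in Vehicle, and from its Y-linked copy Eif2s3y, at 75.9 ± 2.71 TPM in LPS and 85.4 ± 2.53 TPM in Vehicle. Both copies had LPS below Vehicle without overlap, and their near-identical transcripts make the split between them uncertain. Eif2d, an alternative tRNA carrier, had 35.4 ± 4.34 TPM in LPS and 40.9 ± 4.69 TPM in Vehicle. Eif2a, which encodes a separate initiator tRNA carrier, had 17.8 ± 0.943 TPM in LPS and 24.8 ± 1.59 TPM in Vehicle, a log2 change of -0.46 (SE 0.180, limma adjusted p = 0.0897).

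eIF2B recharges eIF2 with GTP and is the complex that phosphorylated eIF2 blocks. All 5 subunit genes had every LPS sample below every Vehicle sample, a pattern that 47.1% of all tested genes showed. None of the 5 was called, beside 7.17% of all tested genes called higher and 22.2% lower. Eif2b1, with the smallest p, had 43.9, 40.2 and 37.2 TPM in LPS and 60.5, 53.5 and 62.5 TPM in Vehicle. Its log2 change was -0.53 (SE 0.172, limma adjusted p = 0.0558). Eif2b4, the most abundant, had 51.7 ± 6.99 TPM in LPS and 62.1 ± 1.33 TPM in Vehicle. Eif2b2 had 34.0 ± 9.79 TPM in LPS and 47.6 ± 0.721 TPM in Vehicle, where LPS 1, at 45.2 TPM, lay just under the Vehicle samples. Eif2b5, the catalytic subunit, had 29.8 ± 3.67 TPM in LPS and 40.3 ± 2.39 TPM in Vehicle, and Eif2b3 9.07 ± 1.58 TPM in LPS and 14.04 ± 2.80 TPM in Vehicle. The median of the 5 was -0.51 against -0.38 for all tested genes, and it was -0.11 under median-ratio scaling.

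3 kinases of eIF2 were among the genes, and 1 was called, lower (33.3%, beside 22.2% of all tested genes). Eif2ak3 encodes PERK, the kinase that senses unfolded proteins in the endoplasmic reticulum. Eif2ak3 (ENSRNOG00000006069) had 5.13, 3.64 and 3.62 TPM in LPS 1 to 3 and 9.63, 9.62 and 11.1 TPM in Vehicle 1 to 3. All LPS samples lay below Vehicle, and LPS 1 was the nearest to it. The mean was 4.13 ± 0.868 TPM in LPS and 10.1 ± 0.872 TPM in Vehicle (SD, n = 3 each), a log2 change of -1.11 (SE 0.221, limma adjusted p = 0.0178).

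Eif2ak4, the amino acid sensor GCN2, had 3.42, 2.56 and 2.52 TPM in LPS and 4.11, 4.84 and 5.54 TPM in Vehicle. The groups did not overlap, and the log2 change of -0.61 was not called (limma adjusted p = 0.0943). Eif2ak1, the heme-regulated kinase, was the most abundant of the 3, at 156 ± 8.16 TPM in LPS and 186 ± 18.5 TPM in Vehicle (log2 change -0.25, limma adjusted p = 0.223).

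eIF3 is the multisubunit scaffold on the small subunit. None of its 11 genes was called, while 7.17% of all tested genes were called higher and 22.2% lower. The changes ran from -0.46 for Eif3j to 0.11 for Eif3g. Eif3g, the most abundant, had 169, 175 and 168 TPM in LPS and 165, 149.7 and 161 TPM in Vehicle, a narrow gap between the groups. Eif3j, a loosely bound subunit, had 24.4, 22.1 and 18.8 TPM in LPS and 31.6, 27.4 and 32.1 TPM in Vehicle (log2 change -0.46, SE 0.188, limma adjusted p = 0.0990). The groups overlapped for 7 of the 11 genes. LPS lay wholly above Vehicle for 1 (9.09%) and wholly below for 3 (27.3%), beside 9.82% and 47.1% of all tested genes. Eif3a, the largest core subunit, had 22.4, 36.2 and 32.5 TPM in LPS and 30.6, 35.8 and 44.8 TPM in Vehicle. Eif3b, another core subunit, had 74.6, 65.0 and 66.8 TPM in LPS and 86.8, 83.3 and 97.5 TPM in Vehicle, and Eif3l 111.7, 95.2 and 87.4 TPM in LPS and 116.7, 114.7 and 115.6 TPM in Vehicle. In these last 2, LPS lay below Vehicle without overlap. The changes of Eif3c, Eif3d, Eif3f, Eif3i, Eif3k and Eif3m lay between -0.18 and 0.04, all with overlap. Eif3el1, named as an Eif3e-like gene, had the narrowest spread of the 63 genes, at 70.2 ± 1.70 TPM in LPS and 69.8 ± 5.46 TPM in Vehicle. Eif3e and Eif3h were not analysed here.

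eIF4F, made of the helicase eIF4A, the cap-binding eIF4E and the scaffold eIF4G, brings ribosomes to capped mRNA. Its core genes were not called. Eif4a1, the most abundant helicase gene, had 336, 387 and 356 TPM in LPS and 315, 259.7 and 378 TPM in Vehicle. Vehicle 3 lay among the LPS samples (log2 change 0.21, SE 0.165, limma adjusted p = 0.337). Eif4a2, its paralog, had 165, 125 and 139 TPM in LPS and 192, 172 and 179 TPM in Vehicle. The LPS samples lay below without overlap (log2 change -0.34, SE 0.147, limma adjusted p = 0.110).

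Eif4a3, the helicase of the exon junction complex, had 174 ± 17.8 TPM in LPS and 197 ± 14.1 TPM in Vehicle. Eif4h, another helper of the helicase, had 169 ± 14.3 TPM in LPS and 189 ± 28.1 TPM in Vehicle, and both overlapped.

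Eif4b, whose product stimulates the helicase, was the called gene of the 5 in this group. It was called lower (20%, beside 22.2% of all tested genes). It had 24.7, 18.8 and 18.15 TPM in LPS and 30.6, 31.5 and 41.1 TPM in Vehicle. The groups did not overlap, and the log2 change was -0.72 (SE 0.213, limma adjusted p = 0.0438). Under median-ratio scaling the change was -0.32 and not called (limma adjusted p = 0.167, 0.00639 to 0.314 over all alternatives). RefSeq places a noncoding gene over Eif4b, and reads of the 2 may not be told apart.

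Eif4e, the cap-binding factor, had 169, 234 and 216 TPM in LPS and 185, 151 and 177 TPM in Vehicle. LPS 1 lay among the Vehicle samples (log2 change 0.26, SE 0.181, limma adjusted p = 0.276). Eif4e2, a paralog linked to repression, had 92.5 ± 9.78 TPM in LPS and 99.4 ± 4.83 TPM in Vehicle. Eif4e3 was rare, at 2.42 ± 0.828 TPM in LPS and 1.297 ± 0.523 TPM in Vehicle. Neither was called. Eif4g2, the most abundant scaffold gene, had 206 ± 26.7 TPM in LPS and 249.2 ± 17.2 TPM in Vehicle, a log2 change of -0.28 (limma adjusted p = 0.155). Eif4g1 had 24.3 ± 5.32 TPM in LPS and 28.8 ± 5.05 TPM in Vehicle, and Eif4g3 9.19 ± 1.35 TPM in LPS and 12.7 ± 1.15 TPM in Vehicle.

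The eIF4E-binding proteins compete with eIF4G for eIF4E until mTORC1 phosphorylates them. Eif4ebp2 was called lower (25% of the list, beside 22.2% of all tested genes) and the other 3 genes were not called. Eif4ebp2 (ENSRNOG00000055391) had 20.7, 18.7 and 24.6 TPM in LPS 1 to 3 and 26.5, 60.3 and 64.5 TPM in Vehicle 1 to 3. Vehicle 1 lay close above the LPS samples, far from the other Vehicle samples. The mean was 21.3 ± 3.00 TPM in LPS and 50.4 ± 20.8 TPM in Vehicle (SD, n = 3 each), a log2 change of -1.11 (SE 0.269, limma adjusted p = 0.0280). It lost the call under median-ratio scaling, at -0.71 (limma adjusted p = 0.104, 0.00141 to 0.294 over all alternatives). Eif4ebp1, its paralog, had 49.0, 41.0 and 48.4 TPM in LPS and 41.99, 44.7 and 45.9 TPM in Vehicle, with full overlap. Eif4ebp3 had 23.4 ± 1.08 TPM in LPS and 23.4 ± 2.43 TPM in Vehicle. Eif4enif1, which carries eIF4E into the nucleus, had 22.1 ± 6.51 TPM in LPS and 17.6 ± 3.71 TPM in Vehicle.

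**Figure D3:**
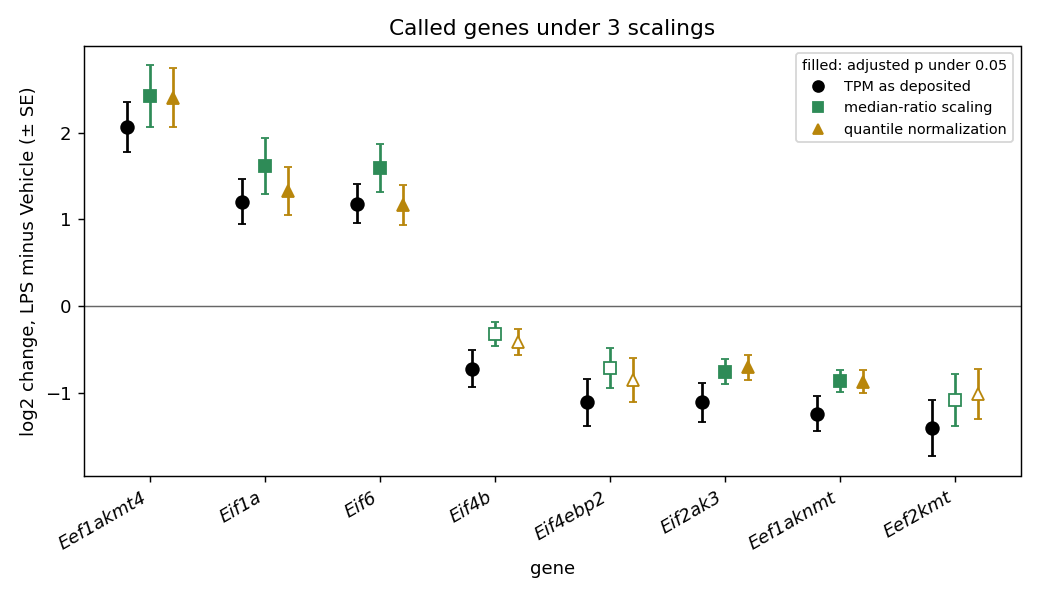
Log2 change, LPS minus Vehicle, of the 8 called genes under TPM, median-ratio and quantile scaling, filled where called and open where not. All 8 keep their side of 0, and Eif4b, Eif4ebp2 and Eef2kmt are open under both other scalings.

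eEF1A, the eEF1B exchange factors and eEF2 carry out elongation. None of their 6 tested genes was called, beside 7.17% of all tested genes called higher and 22.2% lower. Eef1a1 had 727, 653 and 855 TPM in LPS and 686, 716 and 807 TPM in Vehicle. The groups overlapped, with a log2 change of 0.02 (SE 0.123, limma adjusted p = 0.897). Eef2 had 153.6 ± 33.1 TPM in LPS and 158 ± 16.7 TPM in Vehicle, a change of -0.05 (SE 0.200). The eEF1B subunit gene Eef1g had 169 ± 17.3 TPM in LPS and 172 ± 1.09 TPM in Vehicle, and Eef1d 55.5 ± 6.34 TPM in LPS and 63.2 ± 1.34 TPM in Vehicle. Eef1b2, the third of them, had 98.0, 88.6 and 88.7 TPM in LPS and 87.2, 79.5 and 77.7 TPM in Vehicle, above Vehicle in every LPS sample with a change of 0.17 (SE 0.152, limma adjusted p = 0.394). Eef1e1, with the smallest p of the 6 and encoding a protein of the tRNA synthetase complex, had a change of -0.20 (SE 0.173, limma adjusted p = 0.374). Eef1a2, the muscle and neuron form, was not tested and was listed at 0.0133, 0 and 0 TPM in LPS and at 0 TPM in Vehicle.

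Many mRNAs of elongation factors and ribosomal proteins begin with a run of pyrimidines, which couples their translation to mTORC1. A C followed by at least 5 pyrimidines, beginning 5 bases before to 10 after an annotated start, on the gene's strand, was found in 12 of the 59 genes with a promoter (20.3%) and in 14.2% of all symbols. The windows below show 10 bases before to 20 after the start, with the run in capitals, for the members with the longest runs and for Eef1a1.

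Eef1a1, chr8:88225050-88225079, minus strand: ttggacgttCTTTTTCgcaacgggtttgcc

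Eef1b2, chr9:72074081-72074110, plus strand: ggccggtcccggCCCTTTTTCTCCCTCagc

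Eif3f, chr1:172369052-172369081, plus strand: cccttccgttctagCCTCTCTCTTTCTCgg

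Eef1akmt1, chr15:35826902-35826931, minus strand: gatgctcattggCCCCCTCCTTCCggtcgg

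Eif2s3, chrX:62933680-62933709, minus strand: cagccgagcattttCCTTTTCTCTCTgagc

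None of the 12 genes with such a run was called, and their median change was -0.21. Of all tested genes, 7.17% were called higher and 22.2% lower. The 46 tested genes with a promoter and no run had a median of -0.23, with 3 called higher and 4 lower. The window let a run begin after the first base of the mRNA, and the elongation factor genes Eef2 and Eef1g had no match. The split therefore does not show which mRNAs are coupled to mTORC1. Transcript levels do not measure translation, and no ribosome profile was used here.

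Ratios of fixed pairs of genes, not all of them paralogs, cancel the scaling of a sample, apart from the 1 TPM added to each value. Of 9 pairs, 3 had no overlap between the groups. Taken singly, 9.82% of all tested genes had every LPS sample above Vehicle, and 47.1% had every LPS sample below. No share over other pairs of genes was taken. The log2 ratio of Eif1 to Eif1b was 3.75 ± 0.228 in LPS and 2.95 ± 0.194 in Vehicle. That of Eif5a to Eif5b, genes of separate factors, was 6.56 ± 0.0207 in LPS and 6.13 ± 0.110 in Vehicle. That of Eif4ebp1 to Eif4ebp2 was 1.10 ± 0.127 in LPS and -0.0757 ± 0.623 in Vehicle. Each had an exact two-sided permutation p of 0.1, the smallest that 3 against 3 samples allow, and 0.3 after adjustment over the 9 pairs. This permutation test took the samples as unpaired, while the limma fit used the sample number as a block.

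The ratio of Eif4a1 to Eif4a2 was 1.33 ± 0.303 in LPS and 0.785 ± 0.245 in Vehicle (exact permutation p = 0.2, n = 3 each). The ratio of Eif2ak1 to Eif2ak4 was 5.37 ± 0.266 in LPS and 5.01 ± 0.229 in Vehicle (exact permutation p = 0.2). For Eif4e to Eif4e2 it was 1.14 ± 0.381 in LPS and 0.769 ± 0.0817 in Vehicle (exact permutation p = 0.3). The ratios of Eif4g1 to Eif4g2 and of Eef1a1 to Eef2 differed by 0.05 and 0.08. The ratio of Eef1a1 to Eef1a2 carries no information of its own, since Eef1a2 was listed at 0 in nearly every library.

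**Figure D4:**
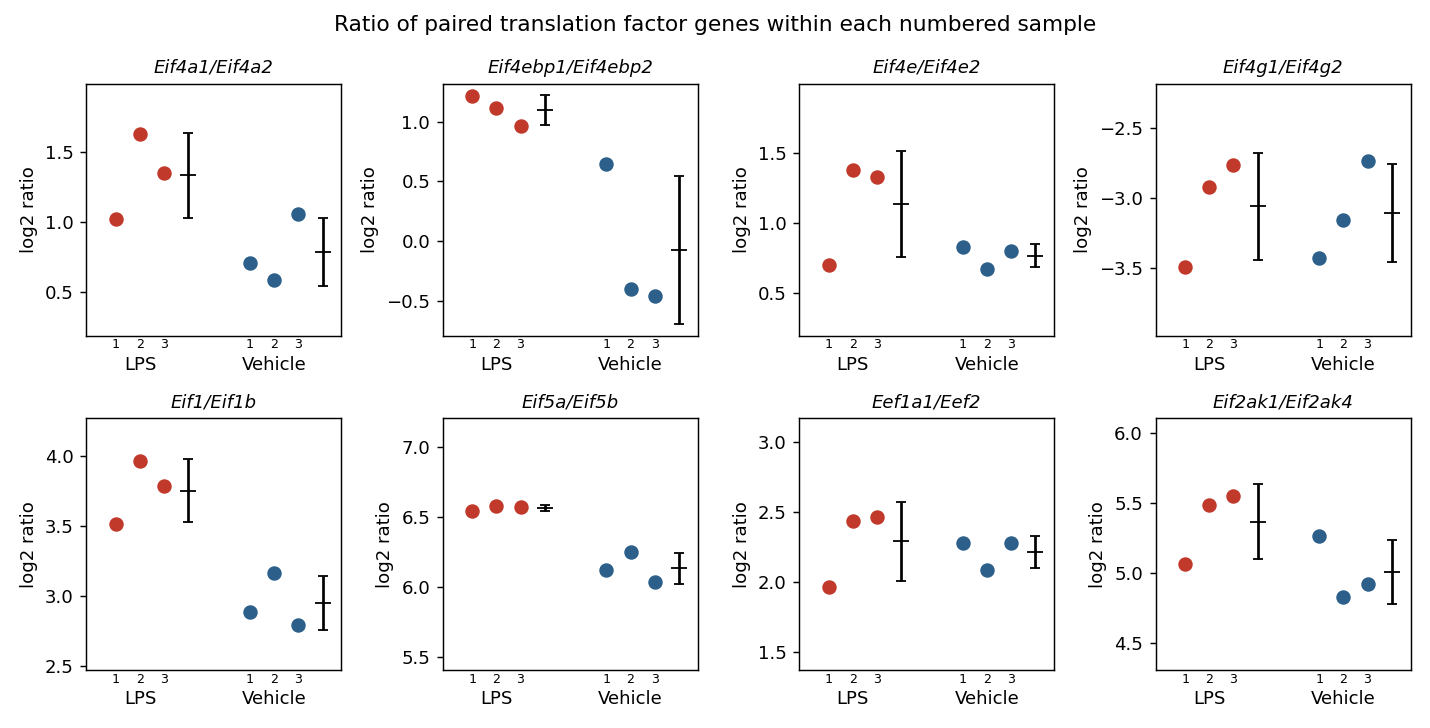
Log2 ratio of TPM + 1 within each numbered sample for the fixed pairs of genes, with group means, LPS left of Vehicle. LPS lies above Vehicle without overlap for Eif1 to Eif1b, Eif4ebp1 to Eif4ebp2 and Eif5a to Eif5b, with mean differences of 0.80, 1.17 and 0.43.

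Genes that act around the factors were read from lists of the pathway. These lists were chosen with earlier results of these data known, so their shares beside all tested genes are no test. Of 17 genes of mTORC1 signalling and its MNK branch, 7 were called lower (41.2%) and none higher, beside 22.2% lower and 7.17% higher among all tested genes. They included Sesn1 and Sesn2, the amino acid sensors that restrain mTORC1, and Deptor, an inhibitor within the complex. Sesn1 had 3.24, 0.927 and 1.12 TPM in LPS and 18.2, 19.7 and 17.6 TPM in Vehicle (log2 change -2.91, SE 0.286, limma adjusted p = 0.00180). The levels in LPS lay far below those in Vehicle. Sesn2 had 12.5, 3.13 and 4.09 TPM in LPS and 29.6, 33.5 and 32.2 TPM in Vehicle, and Deptor 29.5, 19.8 and 23.5 TPM in LPS and 59.9, 65.5 and 60.7 TPM in Vehicle.

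The others called were Ddit4, another brake on mTORC1, Tbc1d7, a subunit of the TSC complex that inhibits it, Mlst8, a core subunit, and Mknk2, an eIF4E kinase. Their log2 changes were -1.56, -1.51, -1.27 and -1.52. Under median-ratio scaling, where 3.7% of all tested genes were called lower, 4 of the 7 calls remained, Sesn1, Sesn2, Deptor and Tbc1d7. Rheb, the mTORC1 activator and the most abundant of the list, had 144.9 ± 22.3 TPM in LPS and 178 ± 12.6 TPM in Vehicle (limma adjusted p = 0.142).

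Of 8 genes of termination, recycling and ribosome rescue, a list chosen in the same way, 2 rose and none fell. The share that rose was 25% of the list, beside 7.17% of all tested genes. Pelo, which releases stalled ribosomes, had 52.2, 86.2 and 83.9 TPM in LPS and 34.6, 37.6 and 38.4 TPM in Vehicle (log2 change 0.95, SE 0.190, limma adjusted p = 0.0180). Gtpbp1 had 30.01, 52.9 and 52.2 TPM in LPS and 21.0, 18.6 and 29.5 TPM in Vehicle (log2 change 0.91, SE 0.232, limma adjusted p = 0.0314). Both were higher in every LPS sample. Gspt1, the release factor eRF3 and the most abundant of the list, had 108 ± 21.9 TPM in LPS and 91.9 ± 5.56 TPM in Vehicle.

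Of 15 other helpers of initiation, 1 rose (6.67%) and 2 fell (13.3%), shares near or below the 7.17% and 22.2% of all tested genes. Pabpc1, the poly(A)-binding protein, had 61.0, 73.6 and 78.1 TPM in LPS and 43.2, 48.7 and 41.3 TPM in Vehicle (log2 change 0.69, SE 0.175, limma adjusted p = 0.0312). Paip2b, an inhibitor of that protein, had 2.38, 2.33 and 1.24 TPM in LPS and 5.07, 4.84 and 7.49 TPM in Vehicle (log2 change -1.22, SE 0.295, limma adjusted p = 0.0280). The groups did not overlap for either. Abcf1, an eIF2 partner, had 41.4 ± 6.45 TPM in LPS and 63.8 ± 6.75 TPM in Vehicle (limma adjusted p = 0.0450). Pdcd4, an eIF4A inhibitor and the most abundant of the list, had 188 ± 16.96 TPM in LPS and 332 ± 141 TPM in Vehicle and was not called. Both genes called lower lost the call under median-ratio and quantile scaling.

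Of 6 genes of eIF2 dephosphorylation and its output, 1 was called lower (16.7%, beside 22.2% of all tested genes) and none higher. This was Impact, an inhibitor of GCN2, at 6.24 ± 0.804 TPM in LPS and 11.9 ± 1.33 TPM in Vehicle (log2 change -0.84, SE 0.196, limma adjusted p = 0.0261), and this call was lost under both other scalings. Atf4, the factor made when eIF2 is phosphorylated, had 290.5 ± 65.5 TPM in LPS and 291.8 ± 57.7 TPM in Vehicle, with a log2 change of 0.02. The 2 enzymes that make hypusine on eIF5A were not called, and the most abundant, Dhps, had 40.6 ± 6.50 TPM in LPS and 53.6 ± 3.01 TPM in Vehicle.

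The 65 genes together held 0.725% ± 0.0145 of TPM in LPS and 0.696% ± 0.0170 in Vehicle. Samples ran from 0.712% to 0.740% in LPS and from 0.680% to 0.714% in Vehicle. Abundant genes weigh most in this share. Eif1, Eif5a and Eif6 had means of 982, 958 and 406 TPM in LPS and 814, 734 and 170 TPM in Vehicle. Of the 63 tested genes, 46 had a negative change. Set beside the 65 genes, 86 tested cytosolic ribosomal protein genes had a median log2 change of 0.03. They had no call in the fit reported here, and 4 had an unadjusted limma p under 0.05. The 37 aminoacyl-tRNA synthetase genes had a median of -0.44. Of these, 3 were called higher (8.11%) and 7 lower (18.9%), near the 7.17% and 22.2% of all tested genes. The differences between these sets were not tested.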

How the data were processed

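RNA of microdissected ducts was copied to cDNA with a low-input kit, amplified and tagmented, per the labels' protocols. The authors deposited TPM in a column for each library. STAR 2.7.9a, RSEM 1.3.3 and the build Rnor_6.0 are named in the submitters' processing notes. The annotation release, filters and strand setting were not given in the sources used here. Read depth is unknown, so no counting interval was made.

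Each sample took the average of log2(TPM + 1) of its 3 libraries. The test covered 12393 genes whose mean reached 1 TPM and left out 20490, and was made with limma 3.58.1 in R 4.3.3, using a variance trend, the sample number as a block, and Benjamini-Hochberg adjustment over all tested genes. The block follows the design text. Deviations of same-numbered samples correlated at 0.06, -0.02 and 0.07, so the values themselves do not show the pairing. The script was tested on simulated data. No 2 libraries were identical.

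Members, role lists and pathway lists were chosen with earlier results of these data known. Named with values were the called genes, and in each role the most abundant gene and the gene of smallest p. The genes of the fixed pairs and those of widest and narrowest spread were named too. Of pathway lists, the called and the most abundant genes were named. Sequences matched RefSeq by symbol. 12 alternatives were planned and 3 were added after the data were seen.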

Additional observations from a re-analysis of the deposited data

How the results depend on the processing

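Counts of members called higher and lower, 3 and 5 here, were 4 and 9 with no replicate block (912 and 3624 of all genes) and 5 and 24 with all 18 libraries under an estimated correlation (1189 and 5295 of all genes). The block, which rests on the design text, ended none of the 8 calls when dropped. The counts were 0 and 0 with the median of libraries (no gene of 12393 called) and with no filter on low values (20 of 23716 genes called). They were also 0 and 0 without the 3 least correlated libraries, all Vehicle (228 and 72 of all genes). This alternative was added after the data were seen. With 1 replicate left out they ranged from 0 to 4 higher and from 0 to 8 lower, with 4 and 8 without replicate 1 (1004 and 3595 of all genes), 2 and 0 without replicate 2 (419 and 296) and 0 and 0 without replicate 3. Median-ratio scaling gave 4 and 2 (851 and 458) with a reversed median change of 0.20, and quantile normalization 3 and 2 (809 and 579) with a median of -0.037. Both scalings without the replicate block, also added, gave 10 and 2 (1442 and 1030 of all genes) with a median of 0.20, and 3 and 2 (1074 and 1288) with a median of -0.037. A pseudocount of 0.1, a filter at 5 TPM and no variance trend gave 3 and 5 (892 and 2773 of all genes), 3 and 5 (718 and 2188 of 9197), and 3 and 4 (806 and 2375). The cause of these shifts was not tested. Of 15 alternatives, 11 called Eef1akmt4 and Eif6, 10 called Eif1a, Eif2ak3 and Eef1aknmt, 6 called Eif4ebp2 and Eef2kmt, and 5 called Eif4b. Depth is unknown and limits the rare genes in a way that could not be measured.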

Other observations

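Eif2ak2, the eIF2 kinase PKR that senses double-stranded RNA and is induced by interferon, was left out by the rule that chose the genes. It had 131.8 ± 41.4 TPM in LPS and 20.3 ± 3.53 TPM in Vehicle (SD, n = 3 each), a log2 change of 2.62 (SE 0.246, limma adjusted p = 0.00151). It was called higher under median-ratio and quantile scaling too, at 3.02 and 2.81.

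The mitochondrial translation factors, a list chosen after the data were seen, had 10 genes in the table, and all 10 passed the filter. None was called higher and 2 were called lower (20%, beside 7.17% higher and 22.2% lower among all tested genes). Mtrf1, a mitochondrial release factor, had 8.08 ± 4.04 TPM in LPS and 17.4 ± 0.326 TPM in Vehicle (log2 change -1.11, SE 0.262, limma adjusted p = 0.0265). Mtrf1l, the other release factor, had 14.3 ± 4.66 TPM in LPS and 24.7 ± 2.00 TPM in Vehicle (log2 change -0.79, SE 0.230, limma adjusted p = 0.0426). The median change of the 10 was -0.42, near the all-gene median of -0.38. Neither call held under median-ratio or quantile scaling. Tufm, the most abundant and the mitochondrial elongation factor Tu, had 136 ± 35.2 TPM in LPS and 159.7 ± 4.01 TPM in Vehicle.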
